A study of Homo sapiens with 11 samples.

Results

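The miR-200 family and miR-205 were examined in small RNA-seq libraries of 6 tumour cell lines. The members were chosen by name, as hsa-miR-200b-3p, hsa-miR-200b-5p, hsa-miR-200a-3p, hsa-miR-200a-5p, hsa-miR-429, hsa-miR-200c-3p, hsa-miR-141-3p and hsa-miR-205-5p, which are 8 of 2588 mature miRNAs listed. The prefix hsa, for human, is left off from here on. The lines were A549 (lung cancer), HepG2 (liver cancer), PANC1 (pancreas cancer), ES2 (ovarian cancer), MV3 (melanoma) and BE(2)C (neuroblastoma). Each line had 2 biological replicates, except PANC1 with 1, so values for PANC1 carry no replicate error. All cultures were parental and untreated. They were harvested 48 h after seeding, but for BE(2)C the treatment protocol gives 24 h while its sample label gives 48 h. Each tumour type is represented by a single line. Libraries of A549, ES2, MV3 and PANC1 were built from 50 ng of RNA with the NEXTflex kit, and those of HepG2 and BE(2)C were built and sequenced by Novogene. Line and preparation therefore cannot be told apart when lines of these 2 sets are compared. The labels give no epithelial or mesenchymal state and no mRNA was measured here, so lines are compared by name and by the organ of the tumour.

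MiRNAs of the miR-200 family are known as keepers of the epithelial state. They repress ZEB1 and ZEB2, transcription factors that silence the adhesion gene CDH1 (E-cadherin), and ZEB1 and ZEB2 in turn repress the miR-200 genes. MiR-205 acts on the same ZEB mRNAs from an unrelated sequence and is best known from stratified and glandular epithelium.

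The family is made at 2 loci. MIR200B (chromosome 1, 1167104 to 1167198, plus strand, GRCh38), MIR200A (1167863 to 1167952) and MIR429 (1169005 to 1169087) span 1984 bp, and the annotation places no other gene over them. MIR200C (chromosome 12, 6963699 to 6963766, plus strand) and MIR141 (6964097 to 6964191) span 493 bp within an intron of the lncRNA MIR200CHG. MIR205 lies elsewhere on chromosome 1, at 209432133 to 209432242, in an exon of the lncRNA MIR205HG. The mature sequences are shown because the seed, bases 2 to 8 in capitals, sets which mRNAs a miRNA pairs with, and because members of different loci are nearly identical. They are taken from RefSeq (GRCh38.p14), in which 8 of 8 members were matched.
miR-200b-3p: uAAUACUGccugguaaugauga
miR-429: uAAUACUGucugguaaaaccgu
miR-200c-3p: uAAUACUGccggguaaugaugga
miR-200a-3p: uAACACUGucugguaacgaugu
miR-141-3p: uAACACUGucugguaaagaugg
miR-200b-5p: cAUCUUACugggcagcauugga
miR-200a-5p: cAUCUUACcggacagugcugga
miR-205-5p: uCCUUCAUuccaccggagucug

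The seed splits the 3p arms across the loci. MiR-200b-3p, miR-429 and miR-200c-3p share AAUACUG, while miR-200a-3p and miR-141-3p share AACACUG. The 5p arms of miR-200a and miR-200b share AUCUUAC, and the miR-205-5p seed CCUUCAU is held by no other member. Counting from the 5′ end, miR-200c-3p differs from miR-200b-3p by U11G and A22G and carries 1 base more, 23 against 22. MiR-141-3p differs from miR-200a-3p by C17A and U22G. The change U4C within the seed separates miR-200b-3p from miR-200a-3p of the same cluster. How reads matching several members were assigned is not given in the sources used here, so the ratio of each such pair is given with its level.

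The libraries held between 1173902 (MV3 replicate 1) and 12137452 (HepG2 replicate 2) miRNA-assigned reads, and 3 reads, the count that 0 observed reads allows, correspond to between 0.247 and 2.56 CPM, the number of reads of a miRNA after scaling each library to 1000000 assigned reads. No replicate pair agreed within sampling noise. The chi-square per degree of freedom was 8.53 to 59.2 in A549, ES2, MV3 and HepG2, but 849 in BE(2)C. There, the liver miRNA miR-122-5p had 823 CPM in replicate 1 and 5.96 CPM in replicate 2, and the erythroid miRNA miR-451a had 299 and 46.0 CPM. In HepG2 miR-122-5p itself reached 64.0 and 50.0 CPM. The melanocyte miRNA miR-211-5p was at 0 in MV3 and all other lines. Another melanocyte miRNA, miR-204-5p, averaged 55.6 CPM in BE(2)C and lay between 1.29 and 1.70 CPM in MV3. The neural miR-9-5p was highest in BE(2)C with 15875 and 17555 CPM. The blood cell miRNA miR-142-3p had 326 and 286 CPM in ES2 but averaged 0.894 CPM in BE(2)C. MiR-223-3p, also of blood cells, was at 0 in ES2 and averaged 0.199 CPM in BE(2)C. MiR-451a averaged 0.301 CPM in ES2. These blood miRNAs did not rise together in either line. MiR-148a-3p took 739220 ± 19263 CPM of HepG2 (SD, n = 2) and miR-21-5p 646036 ± 6097 CPM of A549 (SD, n = 2), which bears on every level set against HepG2 or A549.

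MiR-200b-3p was the most abundant member in A549, HepG2 and PANC1, and its level spanned the widest range of CPM among the members. Its level was 794 and 833 CPM in the A549 libraries, 1219 and 1276 CPM in HepG2 and 93.2 CPM in PANC1. In ES2 it was 7.82 and 5.66 CPM, in MV3 14.5 and 25.2 CPM and in BE(2)C 9.97 and 7.03 CPM. The order of the line means was HepG2, A549, PANC1, MV3, BE(2)C and ES2, with no overlap of libraries between neighbours in this order except BE(2)C and ES2. By abundance, miR-200b-3p ranked 18 in both HepG2 libraries and 55 and 54 in A549, against 192 in PANC1 and 252 to 448 in the other lines. Reads in the low lines were few, with 13 and 13 in ES2, 17 and 39 in MV3 and 75 and 46 in BE(2)C. In bulk RNA, fewer positive cells and less miRNA per cell cannot be told apart.

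MiR-200a-3p, which carries the other family seed, was high in the same 2 lines but differed from miR-200b-3p elsewhere. Its level was 71.9 and 80.6 CPM in A549 and 68.6 and 69.9 CPM in HepG2. PANC1 held 1 read (0.103 CPM), the ES2 libraries 0 reads and the MV3 libraries 1 and 0 reads. In BE(2)C the level was 13.2 CPM in replicate 1 and 1.68 CPM in replicate 2, a ratio of 7.83 that goes with the replicate difference in miR-122-5p given above. The part of that replicate difference in the miR-200a-3p level was not tested. Against ES2, taking 3 reads over its libraries as the floor, miR-200a-3p was at least 101-fold higher in A549 and at least 91.3-fold higher in HepG2.

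MiR-429, which shares the miR-200b-3p seed and lies last in the cluster, was found at 76.8 and 49.0 CPM in A549 and 62.5 and 74.6 CPM in HepG2. PANC1 had 4.41 CPM. ES2 had 0.601 and 0.436 CPM, MV3 4.26 and 0 CPM and BE(2)C 0 and 0.153 CPM. A549 and HepG2 libraries overlapped and both lay above all others. MV3 rested on 5 reads in replicate 1 and 0 in replicate 2.

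**Figure D1:**
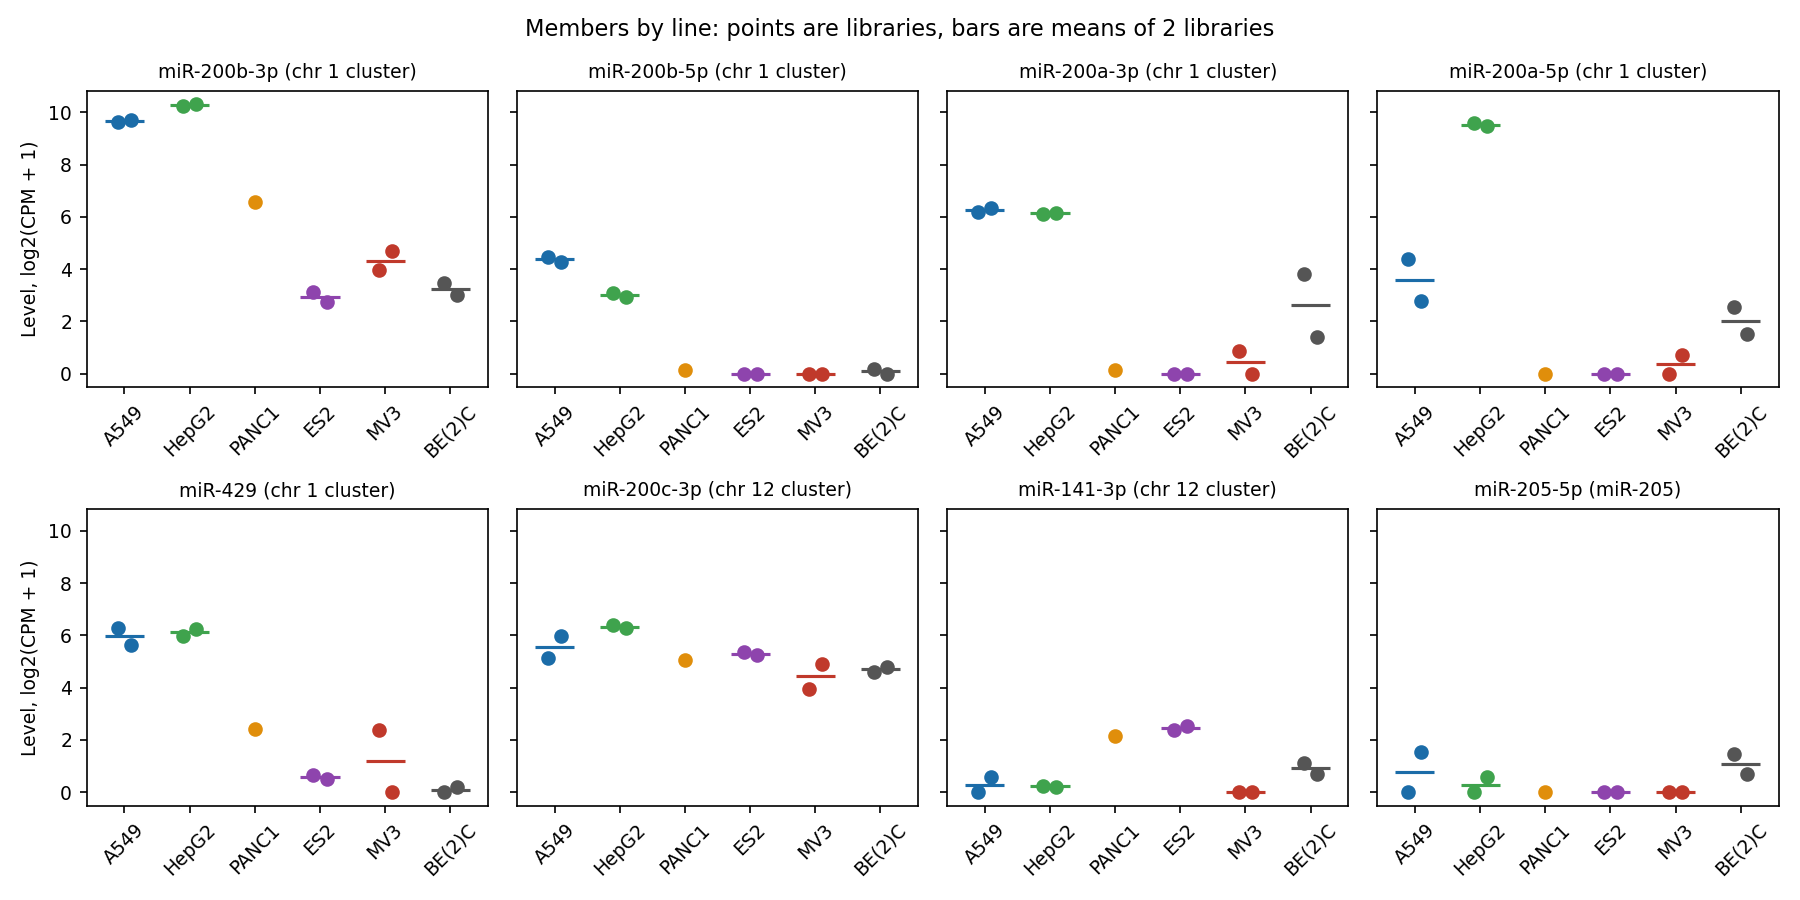
Level of each member as log2(CPM + 1) on the vertical axis, by line on the horizontal axis; points are libraries and bars are means of 2 libraries. The chromosome 1 members stood highest in A549 and HepG2, whereas miR-200c-3p lay between 14.5 and 83.2 CPM in all 11 libraries and miR-205-5p stayed under 2 CPM.

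Summed over its 5 members, the chromosome 1 cluster reached 985 ± 1.64 CPM in A549 and 2130 ± 16.2 CPM in HepG2 (SD, n = 2 each). PANC1 had 97.8 CPM, MV3 22.7 ± 4.40 CPM, BE(2)C 19.4 ± 12.4 CPM and ES2 7.26 ± 1.64 CPM (SD, n = 2 each for the last 3). MiR-200b-3p made up most of the 3p reads of this cluster, 84.2% and 86.5% in A549, 90.3% and 89.8% in HepG2 and 95.4% in PANC1. BE(2)C differed, with 43.1% in replicate 1 and 79.3% in replicate 2.

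The members of the chromosome 1 cluster did not keep a fixed ratio. MiR-200a-3p made up 8.30% and 8.82% of the miR-200a-3p plus miR-200b-3p reads in A549 and 5.33% and 5.19% in HepG2. In PANC1 it was 0.110%, 1 read beside 908 of miR-200b-3p, with a 95% Clopper-Pearson interval from 0.00279% to 0.611%. The lowest bound in A549 was 7.21% and in HepG2 4.86%, so PANC1 lay below both beyond counting error, although with 1 library its replicate error is unknown. MiR-429 did not share this: its share beside miR-200b-3p was 4.52% in PANC1 (95% Clopper-Pearson interval 3.29% to 6.04%), 4.88% and 5.53% in HepG2 and 8.82% and 5.56% in A549. PANC1 thus held miR-200b-3p and the distal miR-429 but almost no reads of the gene between them, in either arm. In BE(2)C the order was the opposite. MiR-200a-3p took 56.9% and 19.3% beside miR-200b-3p, while miR-429 took 0% of 75 reads and 2.13% of 47 reads.

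**Figure D2:**
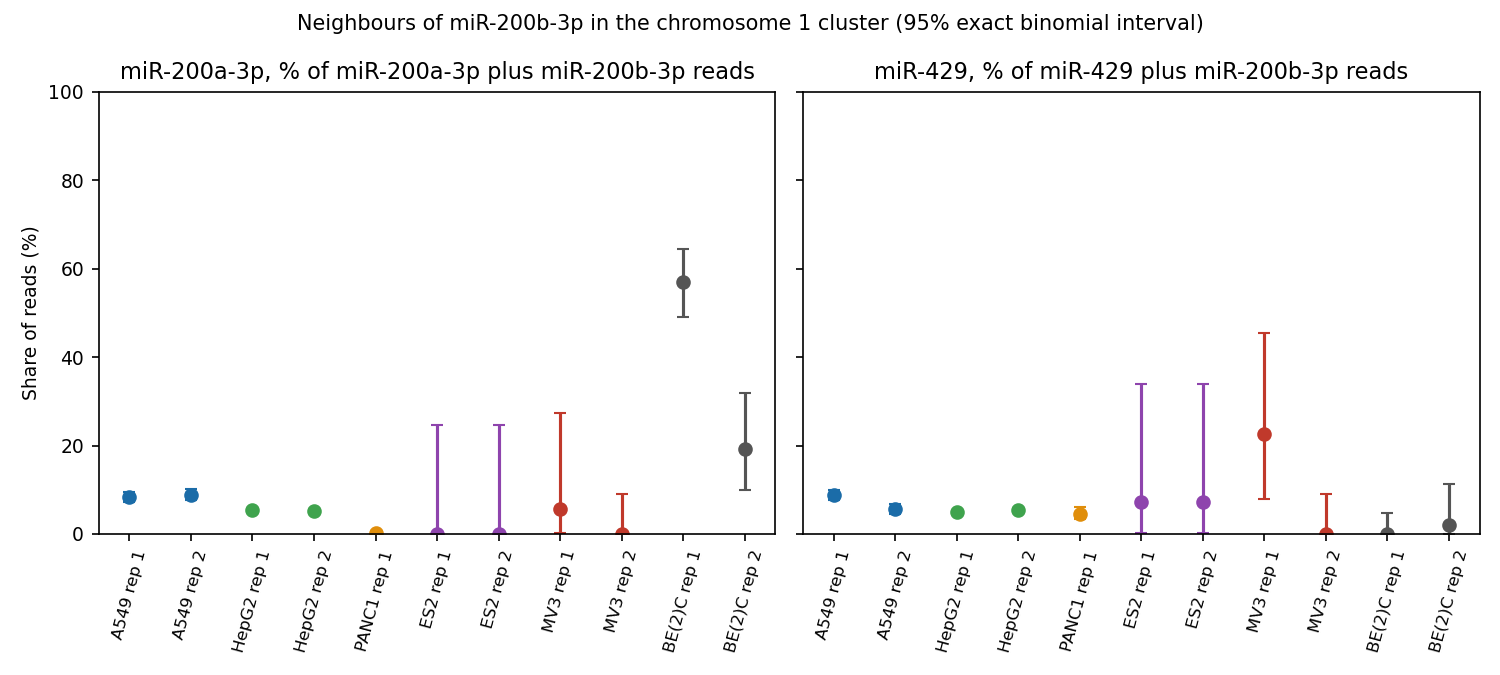
Share of miR-200a-3p (left) and miR-429 (right) in the reads of each plus miR-200b-3p, in percent, for every library with its 95% exact binomial interval, which covers counting error only. PANC1 is near 0 on the left (0.110%) and at 4.52% on the right, and BE(2)C is high on the left (56.9% and 19.3%) and near 0 on the right.

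The 5p arms gave a further difference. MiR-200a-5p was found at 760.5 and 714 CPM in HepG2, 20.2 and 5.82 CPM in A549, 4.92 and 1.83 CPM in BE(2)C, 0 and 0.645 CPM in MV3, and was not read in PANC1 or ES2. HepG2 libraries ranked it 24 and 26 by abundance, above its own 3p arm. The 5p arm held 91.7% and 91.1% of miR-200a reads in HepG2, 22.0% and 6.74% in A549 and 27.2% and 52.2% in BE(2)C. The BE(2)C shares rest on 136 and 23 reads, with 95% Clopper-Pearson intervals of 19.9% to 35.5% and 30.6% to 73.2% that cover counting error only. The part of the library preparation in these shares was not tested. MiR-200b-5p did not follow. It held 0.611% and 0.520% of miR-200b reads in HepG2 and 2.62% and 2.17% in A549. Its levels were 21.3 and 18.4 CPM in A549, 7.49 and 6.67 CPM in HepG2 and 1 read or none in each remaining library. Since both 5p arms share a seed, the AUCUUAC seed was carried in HepG2 by 9035 and 8671 reads of miR-200a-5p beside 89 and 81 of miR-200b-5p.

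**Figure D3:**
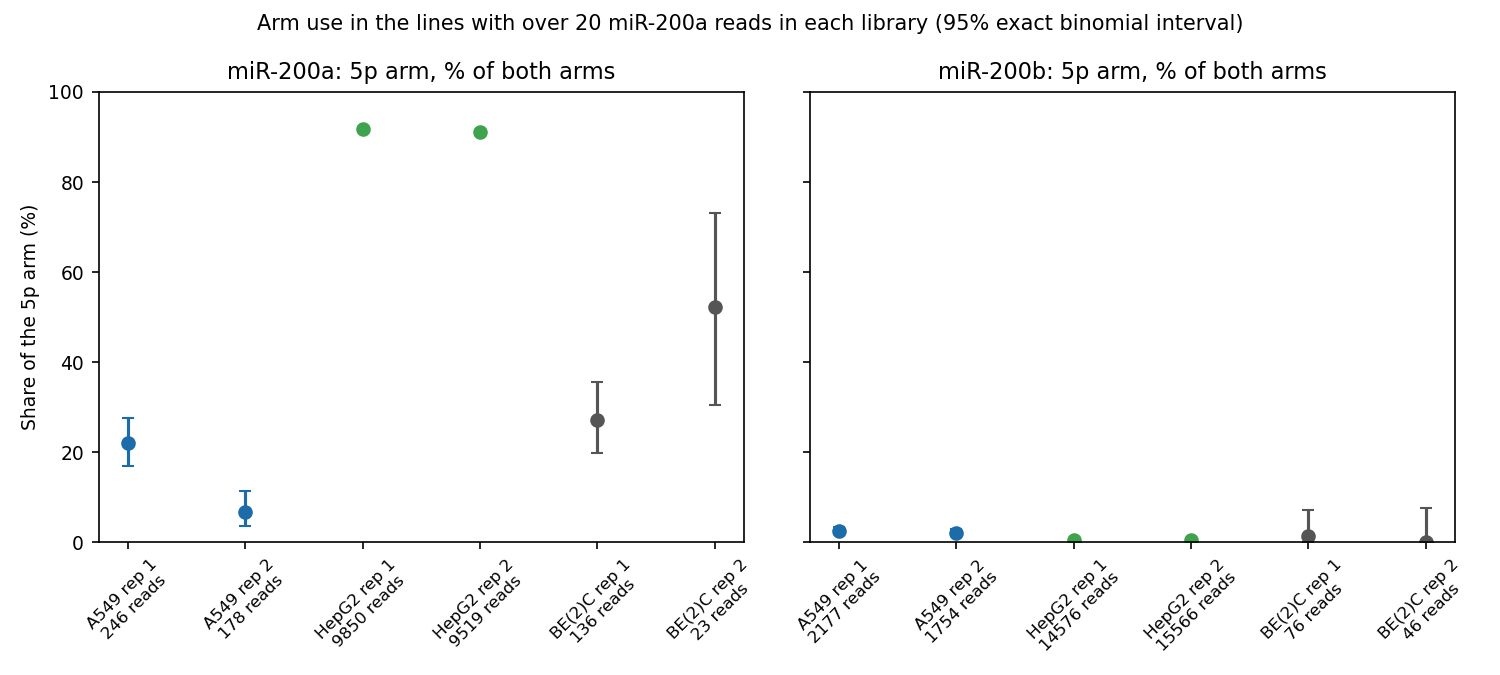
Share of the 5p arm in the reads of both arms of miR-200a (left) and miR-200b (right), in percent, for the libraries of A549, HepG2 and BE(2)C with their 95% exact binomial intervals and read numbers. HepG2 used the 5p arm of miR-200a for 91.7% and 91.1% of reads and that of miR-200b for 0.611% and 0.520%.

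MiR-200c-3p of the chromosome 12 cluster was read in every library and varied far less than miR-200b-3p. It reached 34.1 and 61.6 CPM in A549, 83.2 and 75.9 CPM in HepG2 and 31.9 CPM in PANC1. In ES2 the level was 39.7 and 36.6 CPM, in MV3 14.5 and 29.0 CPM and in BE(2)C 23.5 and 26.6 CPM. HepG2 lay above all others without overlap, A549 overlapped ES2, and BE(2)C overlapped MV3. The near-identical miR-200b-3p was 23.3 and 13.5 times as abundant in A549 reads and 14.6 and 16.8 times in HepG2 reads, but 2.92 times in PANC1. In ES2, by contrast, miR-200c-3p exceeded miR-200b-3p by 5.08 and 6.46 times, and in BE(2)C by 2.36 and 3.78 times. Whether miR-200b-3p reads add to the miR-200c-3p level in A549 and HepG2 was not tested.

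MiR-141-3p, made from the same intron, stayed under 5 CPM everywhere and did not enter the tests, for which 1 line had to average 10 CPM. ES2 held 4.21 and 4.79 CPM (7 and 11 reads), PANC1 3.49 CPM (34 reads) and BE(2)C 1.20 and 0.612 CPM (9 and 4 reads). A549 had 0 and 1 reads, HepG2 2 and 2 reads and MV3 0 and 0 reads. Its share of the chromosome 12 3p reads was 9.86% in PANC1 (95% Clopper-Pearson interval 6.92% to 13.5%) and 9.59% and 11.6% in ES2. In HepG2 the share was 0.202% and 0.217%, with upper bounds of 0.727% and 0.781%, and in A549 0% of 91 reads and 0.781% of 128 reads, with an upper bound of 4.28% for the latter. In BE(2)C it was 4.84% and 2.25%, and in MV3 0% of 17 and 0% of 45 reads, with upper bounds of 19.5% and 7.87%. Reads of both products were thus found in PANC1, ES2 and BE(2)C, and almost only reads assigned to miR-200c-3p in HepG2 and A549. Whether miR-200b-3p reads assigned to miR-200c-3p lower the share in HepG2 and A549 was not tested. The 2 bearers of the AACACUG seed were unequally represented. PANC1 had 34 reads of miR-141-3p against 1 of miR-200a-3p and ES2 had 18 against 0, whereas HepG2 had 4 against 1663 and A549 had 1 against 358. BE(2)C held both, with 9 against 99 reads in replicate 1 and 4 against 11 in replicate 2, and MV3 held 0 against 1.

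Within a library the balance of the 2 loci does not depend on how libraries are scaled. The chromosome 12 cluster held 3.49% and 6.06% of the reads of the 5 family 3p arms in A549, 5.82% and 5.08% in HepG2 and 26.6% in PANC1. ES2 stood at the other end with 83.9% and 87.2%. MV3 had 42.5% and 53.6% from 40 and 84 reads, and BE(2)C 51.7% and 75.4%. The libraries fell in 3 ranges without overlap, A549 and HepG2 below 7%, PANC1 between, and ES2, MV3 and BE(2)C above 42%. The interval of MV3 replicate 1 (27.0% to 59.1%) nevertheless overlapped that of PANC1 (24.2% to 29.1%). The part of the library preparation in these shares was not tested, nor was that of reads assigned between miR-200b-3p and miR-200c-3p. The chromosome 12 sum was 48.1 ± 19.8 CPM in A549, 42.6 ± 1.77 CPM in ES2, 26.0 ± 1.76 CPM in BE(2)C and 21.8 ± 10.3 CPM in MV3 (SD, n = 2 each), with 35.4 CPM in PANC1 and 79.7 ± 5.21 CPM in HepG2 (SD, n = 2). By CPM sums both loci were thus highest in HepG2, where miR-200a-5p averaged 737 CPM. MiR-200a-3p and miR-200b-5p averaged higher in A549 than in HepG2, and these lines differ in preparation. With TMM factors, described with the tests, miR-200c-3p averaged 425 in HepG2 against 44.6 in A549, 28.9 in ES2, 18.1 in PANC1, 16.4 in BE(2)C and 11.7 in MV3, so the size of its range depends on the scaling.

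**Figure D4:**
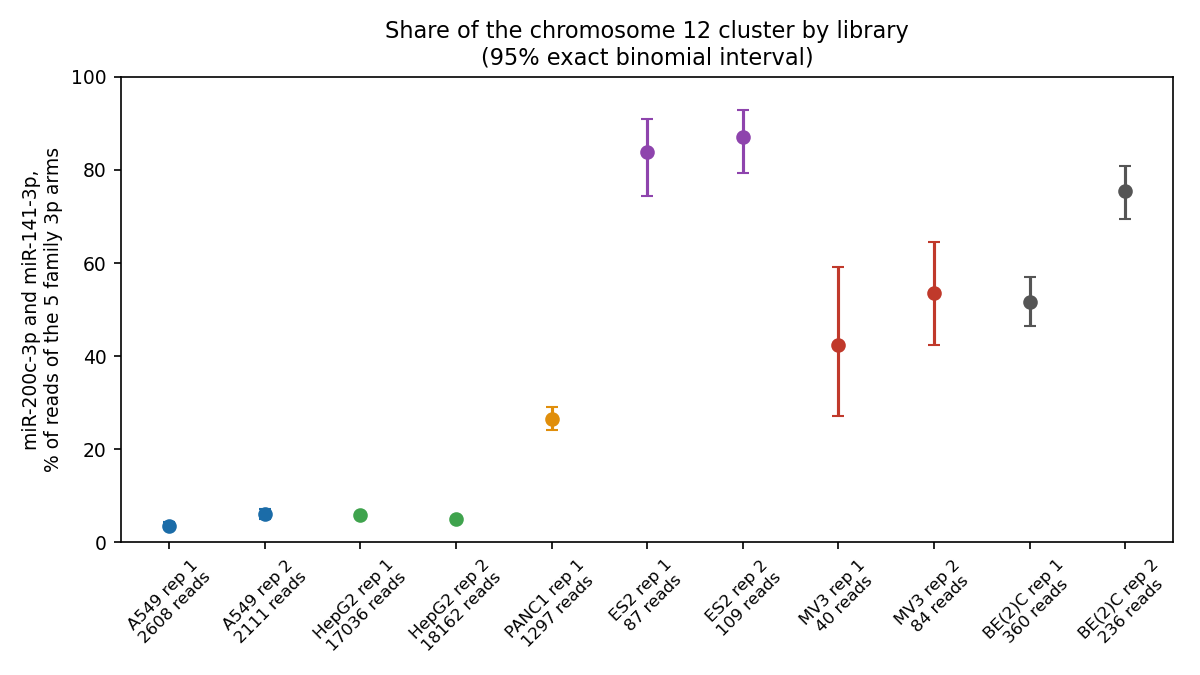
Share of miR-200c-3p plus miR-141-3p in the reads of the 5 family 3p arms, in percent, for each library with its 95% exact binomial interval and the number of reads. A549 and HepG2 lie between 3.49% and 6.06%, PANC1 at 26.6% and ES2 at 83.9% and 87.2%.

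MiR-205-5p was close to the limit of detection in all lines. It had 27 reads among 59238283 in total, of which BE(2)C held 13 and 4, HepG2 0 and 6 and A549 0 and 4. The highest level was 1.94 CPM in A549 replicate 2 (95% exact interval 0.529 to 4.97 CPM). PANC1, ES2 and MV3 had no read, which allows up to 0.308 CPM in PANC1 and up to 2.56 CPM in the shallowest MV3 library. No order of the lines could be read from these counts, and miR-205-5p entered no test. The opposite arms were rarer still, with 0 reads of miR-205-3p, 4 of miR-200c-5p and 6 of miR-141-5p over all libraries.

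Differences between lines were tested by limma on log2(CPM + 1) across 546 miRNAs, those averaging 10 CPM or more within some line, with Benjamini-Hochberg adjustment over all of them. Of the 8 members 6 passed this filter, and those that passed through 1 high line had to differ, so their counts are read against all miRNAs tested. Across the 6 lines 6 of 6 were called, where 99.3% of all miRNAs were called. Across the 4 NEXTflex lines 5 of 6 were called, where the background was 85.4%. A share near the background is no result about the members. The exception among the NEXTflex lines was miR-200c-3p (limma, adjusted p = 0.243), which edgeR and DESeq2 did call (adjusted p = 0.000652 and 0.00209). MiR-429 lost its NEXTflex call (limma, adjusted p = 0.00994) without A549 replicate 1 (0.0987), A549 replicate 2 (0.0755) or ES2 replicate 2 (0.0501). The call of miR-200c-3p across the 6 lines (limma, adjusted p = 0.0172) was lost without HepG2 replicate 1 (0.0918) or replicate 2 (0.0754).

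Between lines of the same preparation, A549 exceeded ES2 in 5 of 6 tested members, where 50.5% of all miRNAs differed, in either direction. MiR-200b-5p passed the filter of 10 CPM only through A549, and miR-200a-3p, miR-200a-5p and miR-429 only through A549 and HepG2. For these members a higher level in A549 than in ES2 was set by the filter, so the count is no support. The log2 difference was 6.73 ± 0.30 for miR-200b-3p (SE, limma, adjusted p = 3.79e-06), 6.27 ± 0.71 for miR-200a-3p (adjusted p = 0.000190) and 5.36 ± 0.70 for miR-429 (adjusted p = 0.000391). MiR-200c-3p had a difference of 0.26 ± 0.39 (adjusted p = 0.604), which turned to -0.16 without A549 replicate 2. The median difference of all tested miRNAs in this pair was -0.17, and 46.7% of all calls were higher in A549. With library totals that leave out miR-148a-3p and miR-21-5p that share was 75.9%, the median was 0.62, and 6 of 6 members were higher in A549.

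A549 was also higher than MV3, in 6 of 6 tested members against a background of 57.3%. The filter set the direction of the same members here, so this count is no support either. MiR-200b-3p differed by 5.34 ± 0.30 (SE, limma, adjusted p = 8.47e-06) and miR-200a-3p by 5.82 ± 0.71 (adjusted p = 0.000336). For miR-200c-3p the difference was 1.12 ± 0.39 (adjusted p = 0.0414), and this call was lost in 8 of the 10 fits that left out 1 library, with adjusted p from 0.0612 to 0.228 in those 8, and with no filter on low values (0.106). Of all calls in this pair 34.8% were higher in A549, with a median difference of -0.47, and TMM factors (trimmed mean of M-values, which scale libraries by the bulk of miRNAs) raised that share to 56.1% and left 6 of 6 members higher in A549.

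ES2 and MV3 differed in 1 of 6 tested members, where 32.8% of all miRNAs were called. MiR-200b-3p was lower in ES2 by a log2 difference of -1.39 ± 0.30 (SE, limma, adjusted p = 0.0102). That call was lost without ES2 replicate 2 (adjusted p = 0.0567), without MV3 replicate 2 (0.0564), with TMM factors (0.0700) and in edgeR (0.0857). With TMM factors miR-200c-3p was called instead, higher in ES2 by 1.30 (limma, adjusted p = 0.0400), and the share of all calls higher in ES2 went from 27.4% to 47.3%. MiR-429 had a difference of -0.60 ± 0.70 (limma, adjusted p = 0.594), which was called without MV3 replicate 2 (-1.79, adjusted p = 0.0216) and turned to 0.60 without MV3 replicate 1.

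HepG2 was higher than BE(2)C in 6 of 6 tested members. In this pair 83.0% of all miRNAs were called, but 9.93% of those calls were higher in HepG2 and the median difference was -2.79. The members lay on the opposite side of 0 from most miRNAs. MiR-200a-3p, miR-200a-5p and miR-429 passed the filter of 10 CPM only through A549 and HepG2. For these members the side was set by the filter, so the count is no support. Log2 differences were 7.49 ± 0.60 for miR-200a-5p (SE, limma, adjusted p = 8.87e-06), 7.05 ± 0.30 for miR-200b-3p (adjusted p = 3.45e-07), 6.01 ± 0.70 for miR-429 (adjusted p = 8.34e-05), 3.51 ± 0.71 for miR-200a-3p (adjusted p = 0.00216) and 1.63 ± 0.39 for miR-200c-3p (adjusted p = 0.00512). TMM factors over all libraries, which moved the median to -0.49 and the share of calls higher in HepG2 to 35.6%, left 6 of 6 members higher in HepG2. Without BE(2)C replicate 1 the difference of miR-200a-3p was 4.71 and without replicate 2 it was 2.31 (limma, adjusted p = 0.000135 and 0.00341), and the other members also kept their calls in both fits.

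The pairs that cross the preparations gave 23 calls among members in all. A549 was higher than BE(2)C in 5 members (background 76.7%) and ES2 lower than BE(2)C in 2 (background 77.5%). MV3 was higher than BE(2)C in 1 and lower in 2 (background 78.0%). Against HepG2, ES2 was lower in 5 members (background 60.8%) and MV3 in 6 (background 69.6%). With TMM factors the share of all calls higher in the NEXTflex line went from 79.8% to 49.7% for ES2 against HepG2 and from 83.7% to 53.4% for MV3 against HepG2, and 6 members were lower in ES2 and 6 in MV3. In these pairs line and preparation cannot be told apart. The filter also set the direction of members that passed it only through A549 or HepG2.

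A549 and HepG2, the lines with the highest chromosome 1 levels, were not ranked in 1 direction by the tests on CPM. Their difference was called in 2 of 6 tested members, where 67.6% of all miRNAs were called: miR-200a-5p was lower in A549 by a log2 difference of -5.94 ± 0.60 (SE, limma, adjusted p = 5.22e-05) and miR-200b-5p higher by 1.37 ± 0.19 (adjusted p = 0.000371). MiR-200b-5p passed the filter of 10 CPM only through A549, so its higher CPM level there was set by the filter and is no support. The median of all miRNAs in this pair was 1.55, and 82.4% of calls were higher in A549. With TMM factors the median was 0.23, 54.9% of calls were higher in A549, and 6 of 6 members were lower there. MiR-200b-3p then differed by -3.10 ± 0.32 (SE, limma, adjusted p = 5.01e-05), against -0.62 ± 0.30 on CPM (adjusted p = 0.111), and miR-200b-5p turned to -0.96 ± 0.27 (adjusted p = 0.0131). MiR-200c-3p was called, lower in A549, without A549 replicate 2 (-1.20, limma, adjusted p = 0.0475) but not with all libraries (-0.78, adjusted p = 0.115). Relative to the median miRNA of the pair, the difference of miR-200b-3p was -2.17 on CPM and -3.32 with TMM factors.

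**Figure D5:**
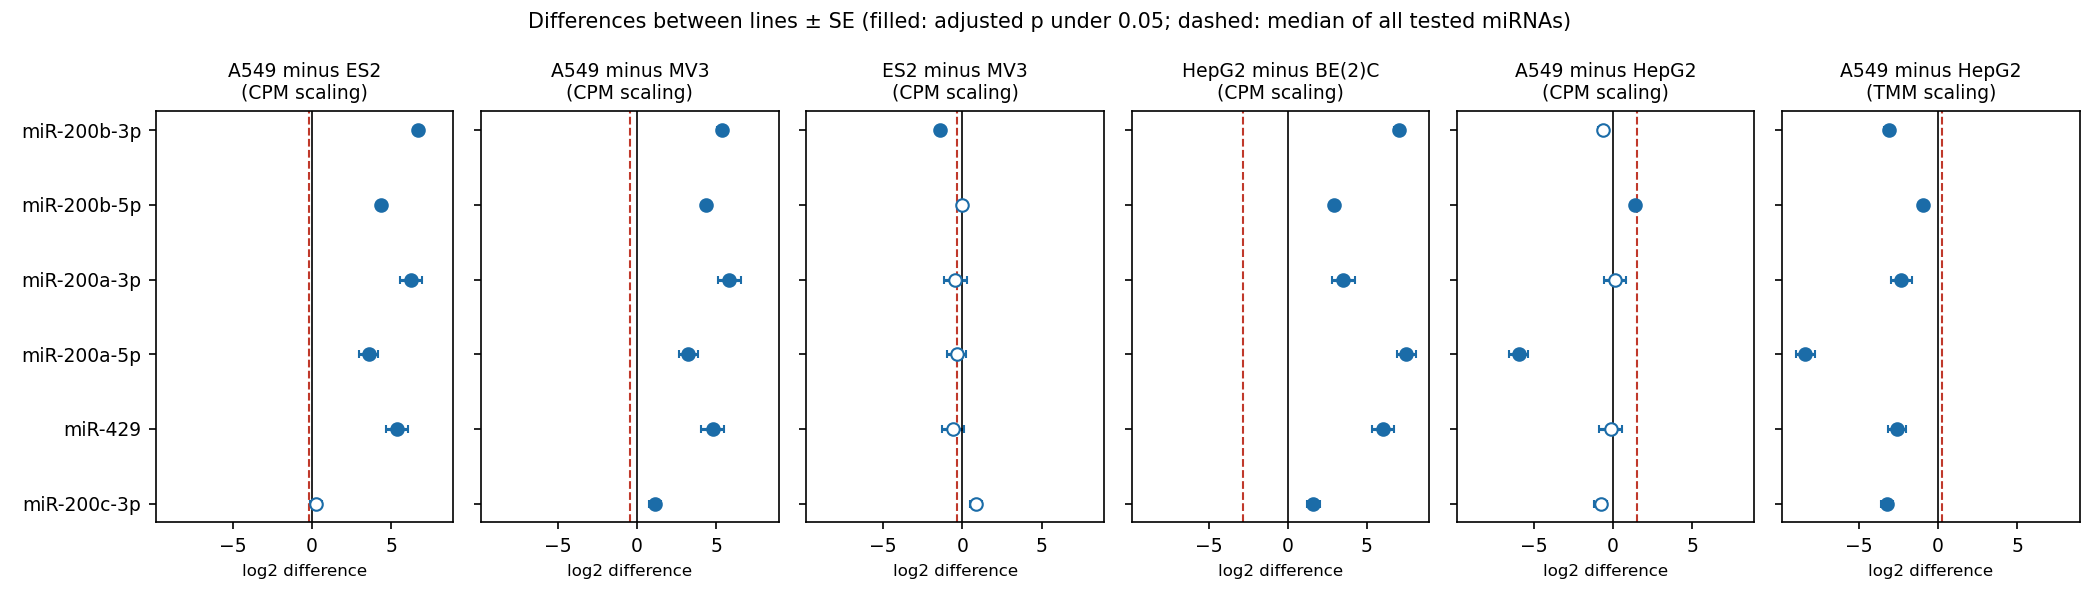
Log2 differences between 2 lines ± SE (horizontal axis) for the 6 tested members, with filled points where the limma adjusted p is under 0.05 and a dashed line at the median of all 546 tested miRNAs. The chromosome 1 members are higher in A549 than in ES2 and MV3 and higher in HepG2 than in BE(2)C, and A549 minus HepG2 is shown with CPM and with TMM scaling, under which the median moved from 1.55 to 0.23.

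Lines from tumours of epithelial organs (A549, HepG2, PANC1 and ES2) were set against MV3 and BE(2)C on the 6 line means. No member was called by limma at an adjusted p under 0.05, and 0% of the 546 miRNAs were. At an unadjusted p under 0.05 there were 21 miRNAs and 0 members, and no tool other than limma was run on this comparison. The mean log2 level of miR-200b-3p was 7.36 in the first set and 3.78 in the second, a difference of 3.58 ± 2.27 (SE, limma, adjusted p = 0.849). For miR-429 the difference was 3.13 ± 1.93 and for miR-200c-3p 0.99 ± 1.57 (limma, adjusted p = 0.849 and 0.852). ES2, from an ovarian tumour, was among the lines with the lowest miR-200b-3p levels: its log2 difference to BE(2)C was -0.29 ± 0.30 (SE, limma, adjusted p = 0.410), and 0.10 ± 0.31 with totals that leave out miR-148a-3p and miR-21-5p (adjusted p = 0.782).

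Other miRNAs linked to epithelial cells did not all rank the lines as the chromosome 1 cluster did, although some came near its order. Of 8 such miRNAs, 4 were higher in A549 than in ES2 and 0 lower, with a median log2 difference of 1.04 beside -0.17 for all miRNAs. The count of 4 of 8 is near the 50.5% called among all miRNAs in this pair. Between HepG2 and BE(2)C 4 were higher in HepG2 and 3 lower, where 83.0% of all miRNAs were called and 9.93% of those calls were higher in HepG2. MiR-182-5p and miR-183-5p belong to the cluster active in sensory epithelia. They were highest in PANC1 (6314 and 4713 CPM) and averaged 4232 and 1898 CPM in A549 and 1974 and 1152 CPM in HepG2. In ES2 (2573 ± 88.0 and 1802 ± 52.1 CPM, SD, n = 2), where miR-200b-3p was low, both were also high. The same held for MV3 (3932 ± 321 and 3141 ± 170 CPM, SD, n = 2). BE(2)C had low levels of both (33.1 ± 8.71 and 29.6 ± 5.73 CPM, SD, n = 2). MiR-96-5p of the same cluster came nearer to the chromosome 1 order. It averaged 124 CPM in A549, 82.8 CPM in HepG2, 72.6 CPM in MV3, 65.8 CPM in ES2 and 8.15 CPM in BE(2)C. PANC1 had 73.4 CPM, and the MV3 libraries spread from 42.6 to 103 CPM. MiR-375 was highest in BE(2)C with 5619 ± 1066 CPM (SD, n = 2). MiR-192-5p, known from liver and gut, was highest in HepG2 (15552 and 16165 CPM) and A549 (2875 and 2585 CPM). MiR-194-5p was highest in A549, averaging 1891 CPM. HepG2 averaged 230 CPM and BE(2)C 209 CPM, with overlapping libraries (219 to 240 CPM and 160 to 258 CPM).

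Of 10 miRNAs linked to mesenchymal cells, 7 were lower in A549 than in ES2 and 2 higher, with a median log2 difference of -2.63 beside -0.17 for all miRNAs, of which 50.5% were called and 46.7% of those calls were higher in A549. Against MV3, 7 were lower in A549 and 0 higher, with a median of -2.27 beside -0.47 for all miRNAs, of which 57.3% were called and 34.8% of those calls were higher in A549. In HepG2 8 were lower than in BE(2)C and 2 higher, which is near the split of all miRNAs in that pair and no result about these 10. This list and the epithelial list were chosen with earlier results of these data known. Their counts and medians therefore serve as a description and are no independent support. MiR-199a-3p, a miRNA of fibroblasts and mesoderm, was found at 5.31 ± 2.02 CPM in A549 and 5.21 ± 1.32 CPM in HepG2, where the chromosome 1 cluster was high (SD, n = 2 each). PANC1 had 14.4 CPM. In ES2, MV3 and BE(2)C miR-199a-3p reached 4055 ± 22.8, 8424 ± 490 and 1625 ± 1047 CPM (SD, n = 2 each). MiR-155-5p was 23.0 ± 0.292 CPM in A549 and 0.168 ± 0.238 CPM in HepG2 but 7927 ± 164 CPM in ES2 and 3311 ± 676 CPM in MV3 (SD, n = 2 each). In PANC1 it reached 864 CPM. It was low in BE(2)C (21.2 ± 5.01 CPM, SD, n = 2), and miR-221-3p and miR-222-3p were likewise higher in ES2 and MV3 than in A549 and PANC1 on average and under 10 CPM on average in BE(2)C. The 2 members higher in A549 than in ES2 were the smooth muscle miRNAs miR-143-3p and miR-145-5p. MiR-143-3p averaged 1539 CPM in A549, 2610.3 CPM in HepG2, 29.8 CPM in PANC1, 14.6 CPM in ES2, 1207 CPM in MV3 and 21401 CPM in BE(2)C, and miR-145-5p was 15.3 ± 5.17 CPM in A549 and 23.2 ± 2.71 CPM in HepG2 but 0 in ES2 (SD, n = 2 each). No mRNA marker of either state was measured in these libraries.

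Over the 6 line means of log2(CPM + 1), the tested miRNAs outside the family most like miR-200b-3p were miR-34a-5p (Pearson r = 0.887), miR-1269b (r = 0.839) and miR-4664-3p (r = 0.733). MiR-34a-5p averaged 267 CPM in A549 and 60.0 CPM in HepG2, had 67.6 CPM in PANC1 and stayed under 3 CPM on average in each other line. For miR-200c-3p they were miR-452-5p (r = 0.827), miR-6715a-3p (r = 0.819) and miR-578 (r = 0.792), of which the last 2 were read almost only in HepG2. Within the family, miR-200b-3p had r = 0.988 with miR-429, 0.817 with miR-200a-3p and 0.775 with miR-200c-3p. These values rest on 6 lines that share preparations and library totals, and serve as a description.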

How the data were processed

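Small RNA was sequenced in 11 libraries of 6 human tumour lines. Per the submitters' notes, the authors clipped adapters with cutadapt 1.14, aligned reads to hg38 with Bowtie2 2.3.2, sorted with SAMtools 1.5, counted miRNAs with featureCounts 1.5.3 and normalised with edgeR 3.30.3. The deposited values are CPM for PANC1. The deposited values of the other tables are a signal, CPM divided by a TMM factor set within each table, so levels are comparable between lines only after rescaling. Whole reads were recovered for 100% of non-zero values (tolerance 0.001 reads). Reads of rows with the same mature name were summed, and each library was rescaled to 1000000.

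Levels were tested with limma 3.58.1 (lmFit, eBayes with trend, R 4.3.3) on log2(CPM + 1), which understates differences of low miRNAs, after a filter of 10 CPM on the mean of at least 1 line. P-values were adjusted by the Benjamini-Hochberg method over all miRNAs tested, with a threshold of 0.05, and contrasts were two-sided. Cluster sums and shares are given without a test. Shares of single libraries carry 95% Clopper-Pearson intervals, which cover counting error only, as PCR reads without molecular identifiers are not independent molecules. The floor for 0 reads is 3 reads, per library for an upper limit and over the libraries of a line for a fold. Alternatives were TMM factors, totals without miR-148a-3p and miR-21-5p, the values as deposited, a pseudocount of 5, no filter or a filter of 100 CPM, no trend, the replicate block, leaving out each replicate, the library preparation as a covariate of the comparison by organ, both arms summed for the share of the chromosome 12 cluster, and edgeR 4.0.16 and DESeq2 1.42.0 on the recovered reads, where edgeR called 523 and DESeq2 477 miRNAs across the 6 lines beside 542 for limma. The fits were tested on simulated data. All 8 members, the other arms, the lists of 8 epithelial and 10 mesenchymal miRNAs, the markers and the 3 miRNAs most like a member were named by rule. Members and lists were chosen with earlier results of these data known. Replicate numbers are not stated to mark a shared day or batch.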

Additional observations from a re-analysis of the deposited data

How the results depend on the processing

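Of 42 tests and differences of single members, 29 kept their direction and side of the threshold under each alternative that gave them a value. The filter of 100 CPM gave one for 13 of the 42, and fits without a HepG2 or BE(2)C library gave none for the NEXTflex comparison. A filter of 100 CPM, under which fewer members are tested, gave 2 calls among members across the 6 lines, 1 across the NEXTflex lines, 7 in pairs within a preparation and 10 in pairs across preparations, against 6, 5, 18 and 23. No other alternative moved these counts by over 1.5 times. Leaving out each replicate gave 5 to 6, 4 to 5, 16 to 18 and 20 to 25 calls. With the replicate block the counts were 6, 5, 18 and 24. Deviations of same-numbered libraries correlated at r between -0.05 and 0.11 over the 10 pairs of lines, highest for HepG2 with BE(2)C. Low correlations cannot settle whether same-numbered libraries shared a day or batch. With both arms summed, the HepG2 share of the chromosome 12 cluster was 3.61% instead of 5.45%.

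Under other scalings and tools, reversals occurred in A549 against HepG2. MiR-200b-5p changed from 1.37 to -0.96 with TMM factors, -0.60 with totals without miR-148a-3p and miR-21-5p, -1.07 in edgeR and -1.02 in DESeq2. MiR-200a-3p changed from 0.13 to -2.33, -1.96, -2.42 and -2.37 in the same order. Other reversals came from leaving out 1 library, over which miR-429 ranged from -0.47 to 0.17 in A549 minus HepG2 and from -1.79 to 0.60 in ES2 minus MV3, and miR-200c-3p from -0.16 to 0.68 in A549 minus ES2. The cause of these changes was not tested. MiR-141-3p and miR-205-5p rest on 70 and 27 reads in all, and PANC1 on a single library.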
